A study of Mus musculus with 6 samples.

Results

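The subject here is a group of secreted matrix proteins called matricellular proteins, followed in cultured fibroblasts with and without the long noncoding RNA *Hotair*. The 10 genes named for the group were *Sparc*, *Sparcl1*, *Smoc1*, *Smoc2*, *Thbs1*, *Thbs2*, *Postn*, *Tnc*, *Fn1* and *Spp1*, and all array features (probe sets) annotated to 1 of them alone were taken. This gave 17 probe sets for 9 of the 10 genes, out of 18193 genes measured. *Spp1*, which encodes osteopontin, had no probe set annotated to it alone and was not analysed here. The genes were chosen by their knockout minus wild type differences on these same arrays, so those differences are a description. Counts of these genes past a limma threshold are given only beside the share of all genes past it, and nothing is read from them.

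The fibroblasts came from the tail tips of newborn mice. There were 3 *Hotair* knockout samples and 3 wild-type samples, each hybridised to its own Affymetrix GeneChip array, and all the mice had been backcrossed to C57BL6, with a similarity the labels give as over 97%. *Hotair* lies within the Hoxc genes, which pattern the body axis. With 0 probe sets annotated to it, *Hotair* was not analysed here, and the genotypes are taken from the labels. Values are log2 probe set summaries, on which 1 unit is a doubling, and each gene is represented by whichever of its probe sets averaged highest.

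Matricellular proteins sit in the extracellular matrix without being its main load-bearing fibres, and they regulate how cells attach, how collagen is assembled and how growth factors are held or released. SPARC and its relatives bind collagen and calcium, thrombospondins bind growth factors, proteases and cell surface receptors, and tenascins and periostin are made at sites of growth and wound repair. Fibronectin is a major adhesive glycoprotein of the fibroblast matrix and is included beside them because several of these proteins bind it.

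Arrays numbered 1 in both genotypes stood apart from the other 4. Over all probe sets Pearson's r was 0.984 between the knockout and wild-type arrays numbered 1, against 0.946 and 0.957 between knockout array 1 and the other knockout arrays and 0.941 and 0.942 between wild-type array 1 and the other wild-type arrays. A list of 12 proliferation genes, 11 of them measured, was low on both (medians of -1.48 in knockout and -1.59 in wild type relative to each gene's mean, against 0.56 to 1.18 on the other 4 arrays). The difference between 3′ and 5′ control probes for *Gapdh*, which grows as RNA degrades, was 0.75 on knockout array 1 and between -0.21 and -0.03 on the other 5. Macrophage markers, 12 of 12 measured, had a summed level of 8.99 to 11.62 (log2) in knockout, highest on array 1, and 9.72 to 10.08 in wild type. On knockout array 1 *Tyrobp* measured 9.14, *Lyz2* 10.57, *Cd68* 7.85 and *Fcer1g* 7.80, each its highest of the 6 arrays. *Adgre1* was at most 4.86 and *Ptprc* at most 4.44 on any array. *Cd14* of the same list went the other way, at 7.89, 5.87 and 5.75 in knockout and 8.17, 8.35 and 8.89 in wild type. *Csf1r*, *Ptprc* and *C1qb* were highest on wild-type array 1. Of the fibroblast markers, 10 of 10 measured, *Col1a2* ranged from 14.35 to 14.68 and *Vim* from 14.40 to 14.80, and 7 endothelial markers lay between 3.34 and 5.83. Results are therefore given for all 6 arrays and also without both arrays numbered 1, and the part of proliferation, RNA quality or macrophage RNA in them was not tested.

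Members of the group lay on both sides of 0. Over the 6 arrays *Smoc2* and *Thbs1* lay lower in knockout, *Postn*, *Sparcl1* and *Thbs2* lay higher, and *Sparc*, *Smoc1*, *Tnc* and *Fn1* differed by less than 0.25 log2 units. The median difference of the 9 genes was 0.05, beside 0.01 for all genes. By limma 0 of 9 had an adjusted p under 0.05, as had 0% of all genes; at an unadjusted p under 0.05 there was 1 of 9, against 6.68% of all genes. The 2 genotypes did not overlap for 1 of 9, *Thbs1*, against 9.93% of all genes, and for 1 of 17 probe sets, against 8.91% of all probe sets. The difference had the same sign for all 3 array numbers in 2 of 9, *Thbs1* and *Fn1*, against 30.5% of all genes. Absolute differences over 1 were seen for 5 of 9, against 5.5% of all genes, and nothing is read from this share because the same differences helped to choose the genes. In this bulk RNA, fewer cells of one type and less RNA per cell cannot be told apart.

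**Figure D1:**
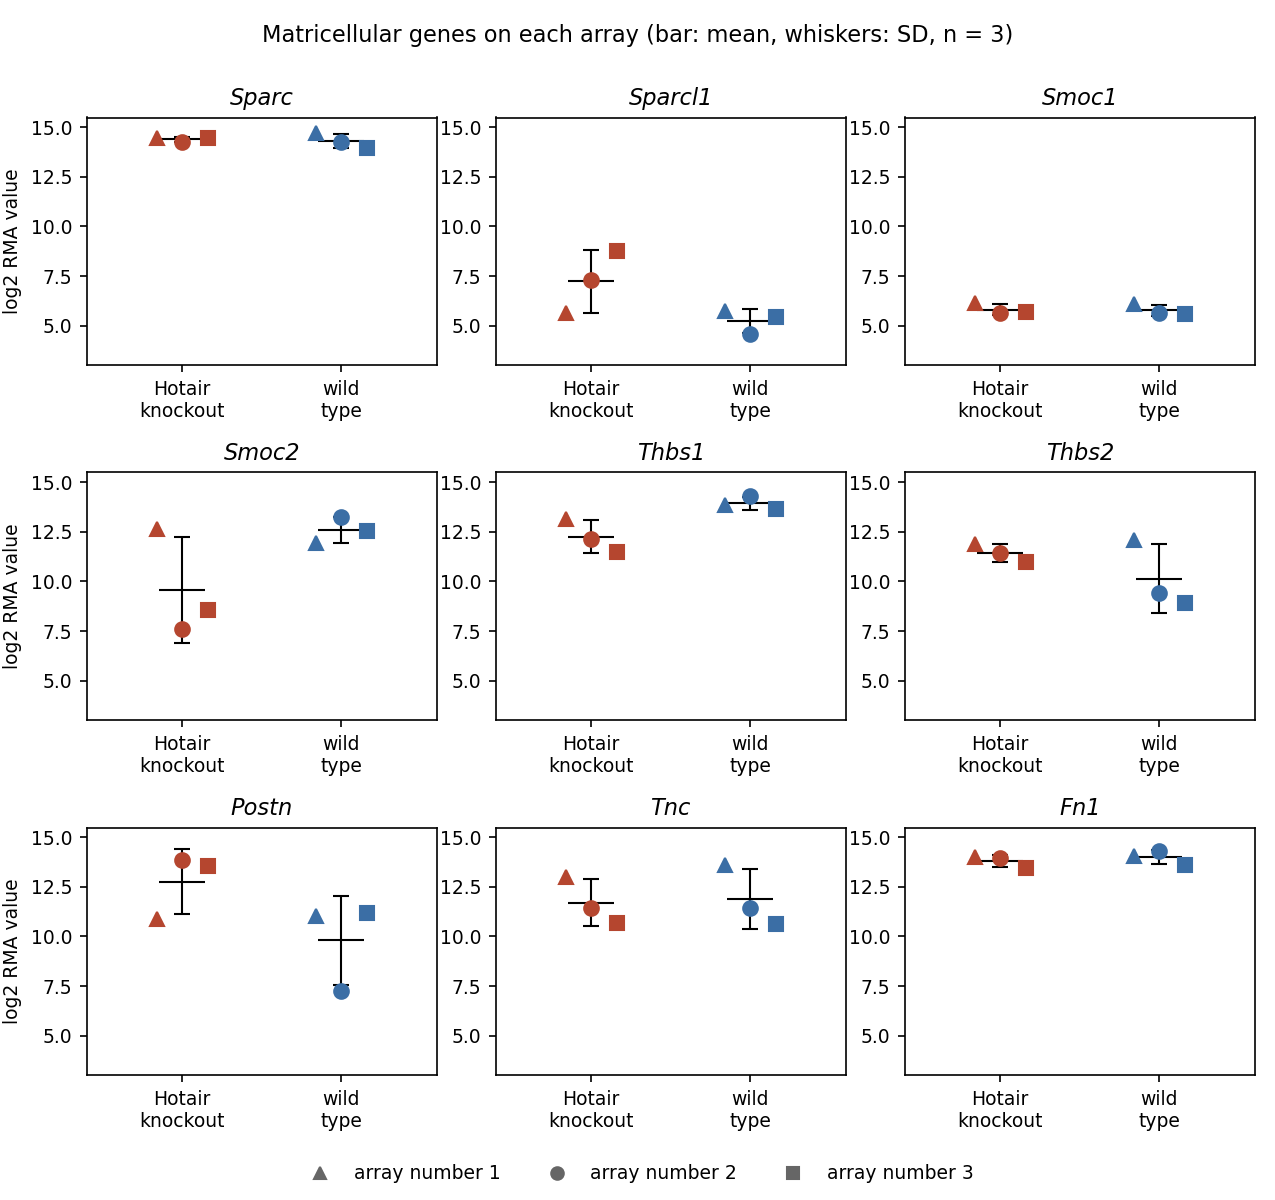
Log2 RMA value of 9 matricellular genes on each array, *Hotair* knockout (red, left) and wild type (blue, right); horizontal bars are means, whiskers SD (n = 3), and the marker shape gives the array number. *Smoc2*, *Postn* and *Sparcl1* set knockout arrays 2 and 3 apart from the wild-type arrays of the same number, while array 1 of knockout lies with wild type; *Tnc* is highest on array 1 of both genotypes.

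*Smoc2*, which encodes a secreted modular calcium-binding protein of the SPARC family, lay far lower on 2 of the 3 knockout arrays than on any wild-type array. It measured 12.63, 7.59 and 8.56 on knockout arrays 1, 2 and 3, against 11.95, 13.25 and 12.55 on wild-type arrays 1, 2 and 3. Knockout arrays 2 and 3 were low and knockout array 1 lay within the wild-type range, so the genotypes overlapped. The mean was 9.59 ± 2.67 in knockout and 12.59 ± 0.65 in wild type (SD, n = 3), a difference of -2.99 ± 1.32 (SE). A second probe set measured 10.30, 5.64 and 6.78 in knockout, against 10.20, 11.49 and 10.65 in wild type, and differed by -3.21 ± 1.21. By array number the difference was 0.68, -5.67 and -3.99, so the first pair went the other way.

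Without both arrays numbered 1, *Smoc2* was at -4.83 ± 0.40 (SE), a level 28.5-fold higher in wild type, and the second probe set at -4.86 ± 0.49. Leaving out single arrays gave -4.51 to -1.99. The genes whose profile over the 6 arrays lay closest were *C1qtnf3*, a secreted relative of complement C1q, and *Grb10*, an imprinted adaptor that restrains growth factor signalling. Their root mean square distances, each gene centred on its mean, were 0.42 and 0.43 log2 units, against a spread of 2.18 for *Smoc2* itself. *Grb10* measured 12.31, 8.17 and 7.94 in knockout and 12.10, 12.64 and 12.43 in wild type, with knockout arrays 2 and 3 again the low ones.

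The other SPARC family members did not share this pattern. *Sparc*, a collagen-binding glycoprotein also called osteonectin, measured 14.47, 14.26 and 14.46 in knockout, against 14.70, 14.25 and 13.98 in wild type. The ranges overlapped and the difference was 0.08 ± 0.22 (SE); the other 2 probe sets were at 0.10 ± 0.32 and 0.04 ± 0.16, and leaving out single arrays gave -0.08 to 0.28. *Smoc1*, the closest relative of *Smoc2*, stayed between 5.61 and 6.14 in knockout and between 5.56 and 6.10 in wild type. Its single probe set differed by 0.05 ± 0.23, and its mean of 5.78 over the 6 arrays lay below the median of all genes, 6.9. A difference of *Smoc1* was not detectable with this spread, which does not show that it is absent.

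*Sparcl1*, also called hevin, an anti-adhesive relative of SPARC, lay higher on the knockout arrays numbered 2 and 3. It measured 5.63, 7.28 and 8.77 in knockout, against 5.72, 4.56 and 5.44 in wild type, from 1 probe set. Knockout array 1 lay inside the wild-type range, and the other knockout arrays lay above it. Every wild-type value lay below the median level of all genes, 6.9. The mean was 7.23 ± 1.57 in knockout and 5.24 ± 0.60 in wild type (SD, n = 3), a difference of 1.99 ± 0.81 (SE). Without both arrays numbered 1 it was 3.03 ± 0.55, and leaving out single arrays gave 1.22 to 2.79. The nearest profiles were those of *Gstt1*, a glutathione transferase, and *Ablim1*, an actin-binding protein, at 0.38 and 0.42 log2 units against a spread of 1.39. Only 3 of 4 probe sets of *Ablim1* had the same sign, with differences between genotypes from -0.1 to 2.06.

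**Figure D2:**
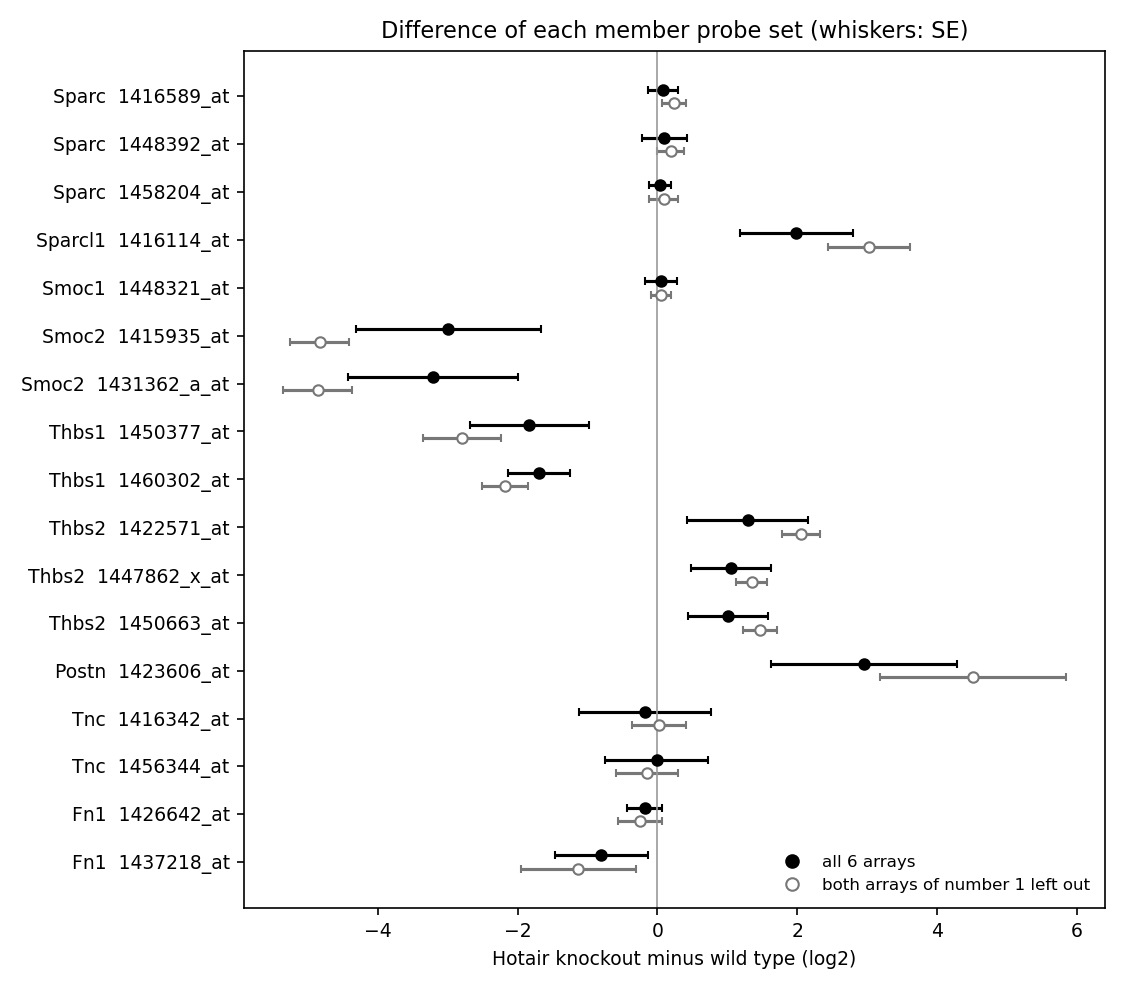
Difference of each of the 17 probe sets, *Hotair* knockout minus wild type on the log2 scale, with SE from limma fitted over all probe sets; filled points use all 6 arrays and open points leave out both arrays numbered 1. Both *Smoc2* and both *Thbs1* probe sets lie below 0, all 3 *Thbs2* probe sets, *Postn* and *Sparcl1* lie above 0, and the *Sparc*, *Smoc1* and *Tnc* probe sets lie within 0.3 of it.

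The 2 thrombospondins lay on opposite sides. Both are large trimeric glycoproteins that restrain blood vessel growth; thrombospondin 1 also activates latent TGF-beta, a growth factor that drives matrix production. *Thbs1* measured 13.14, 12.12 and 11.49 in knockout, against 13.87, 14.30 and 13.66 in wild type. Every knockout value lay below every wild-type value, with array 1 closest. The mean was 12.25 ± 0.83 in knockout and 13.94 ± 0.32 in wild type (SD, n = 3), a difference of -1.69 ± 0.44 (SE), or 3.23-fold higher in wild type.

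*Thbs1* was lower in all 3 array pairs, by -0.72, -2.17 and -2.18 for numbers 1, 2 and 3. Leaving out single arrays gave -2.14 to -1.31, and leaving out both arrays numbered 1 gave -2.18 ± 0.31 (SE). Its second probe set measured 13.31, 11.23 and 9.93 in knockout, against 13.23, 13.85 and 12.88 in wild type, so there the genotypes overlapped through array 1 (-1.83 ± 0.85). A further probe set, annotated to *Thbs1* and another gene together, was not used. The closest profiles were *Col4a1*, a basement membrane collagen chain, at 0.17 log2 units and *Fhl1*, a LIM domain protein of muscle and stressed cells, at 0.24, against a spread of 0.99; a second probe set of *Fhl1* differed between genotypes by only -0.24.

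*Thbs2* measured 11.88, 11.43 and 10.99 in knockout, against 12.11, 9.43 and 8.90 in wild type. The knockout values lay together, while wild-type array 1 lay above all of them and wild-type arrays 2 and 3 below. The mean was 11.43 ± 0.45 in knockout and 10.14 ± 1.72 in wild type (SD, n = 3), a difference of 1.29 ± 0.86 (SE). The other probe sets gave 1.01 ± 0.57 and 1.05 ± 0.57, and the array design marks the one at 1.05 as able to cross-hybridise. By array number the difference was -0.22, 2.00 and 2.09. The other probe sets were higher in knockout for all 3 numbers, by 0.46, 1.13 and 1.56 for the one marked for cross-hybridisation and by 0.09, 1.54 and 1.40 for the other. The main probe set, without both arrays numbered 1, differed by 2.05 ± 0.26, 4.13-fold higher in knockout. Nearest in profile were *Steap1*, a metalloreductase of the cell surface, and *Vdr*, the vitamin D receptor, at 0.27 and 0.29 log2 units against a spread of 1.21.

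*Thbs2* and *Smoc2* are neighbours on mouse chromosome 17 in assembly GRCm38.p6, with 0 protein-coding genes and 3 noncoding RNA genes annotated between them, none of the 3 measured. Their differences had opposite signs, 1.29 ± 0.86 for *Thbs2* and -2.99 ± 1.32 for *Smoc2* (SE). *Sparcl1* and *Spp1* likewise share a stretch of chromosome 5, with 4 protein-coding genes of bone and tooth matrix between them. These 4 were low on all arrays and differed by 0.38 ± 0.19 (*Dspp*), 0.07 ± 0.14 (*Dmp1*), -0.10 ± 0.17 (*Ibsp*) and 0.04 ± 0.13 (*Mepe*), while *Sparcl1* stood at 1.99.

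Periostin, the product of *Postn*, binds collagen and fibronectin and promotes collagen cross-linking. *Postn* measured 10.88, 13.86 and 13.57 in knockout, against 11.03, 7.23 and 11.18 in wild type. Knockout arrays 2 and 3 were high, wild-type array 2 was low, and the other 3 arrays lay within 0.30 of each other. The mean was 12.77 ± 1.64 in knockout and 9.81 ± 2.24 in wild type (SD, n = 3), a difference of 2.96 ± 1.33 (SE) from 1 probe set. By array number it was -0.15, 6.63 and 2.40. Without both arrays numbered 1 the difference was 4.51 ± 1.23, and leaving out single arrays gave 1.67 to 3.90.

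Of the 10 fibroblast markers, *Dcn*, *Lum*, *Thy1* and, by a small margin, *Col3a1* (13.67) were likewise lowest on wild-type array 2, whereas *Col1a1* was highest there (12.79). *Dcn*, a small matrix proteoglycan, ranged from 11.54 to 12.98 in knockout and from 6.87 to 10.94 in wild type. The whole list had a summed level of 16.27 to 16.62 in knockout and 16.16 to 16.27 in wild type (log2). Of its genes 9 were higher and 1 lower in knockout over the 6 arrays (median 0.77, beside 0.01 for all genes). Without both arrays numbered 1, 4 were higher at a limma adjusted p under 0.05, against 7.56% of all genes, and 0 lower, against 6.41%. *Thy1*, a fibroblast surface protein, measured 11.71, 10.54 and 10.28 in knockout and 12.15, 4.65 and 7.17 in wild type. Of the pericyte markers, *Rgs5* measured 4.83, 3.81 and 4.47 in knockout and 4.12, 8.19 and 7.25 in wild type, and *Cspg4* measured 8.68, 7.40 and 7.78 in knockout and 8.03, 10.04 and 9.68 in wild type. On arrays 2 and 3 *Cnn1* (11.44 and 11.27 in knockout, 8.55 and 8.06 in wild type), *Mcam* and *Notch3* of the same list went the other way. At a limma adjusted p under 0.05 without both arrays numbered 1, 3 of the 9 were higher in knockout, against 7.56% of all genes. A further 2 were lower, against 6.41% of all genes. The whole list of 9 smooth muscle and pericyte markers, 9 of 9 measured, had a summed level of 14.97 to 15.55 in knockout and 15.21 to 15.99 in wild type (log2), and the part of either list in the *Postn* values was not tested. The nearest profiles to *Postn* were *Ptn*, a secreted growth factor, and *Tenm3*, a teneurin of the cell surface, at 0.36 and 0.37 log2 units against a spread of 2.18.

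*Tnc* followed the array number by its main probe set. Tenascin C, its product, is a large matrix glycoprotein that weakens cell adhesion and is induced in wounds. It measured 13.02, 11.44 and 10.66 in knockout, against 13.60, 11.43 and 10.65 in wild type. Arrays 2 and 3 of knockout each lay within 0.02 of the wild-type array of the same number, and array 1 was the highest of both genotypes. The difference between genotypes was -0.18 ± 0.93 (SE), and -0.01 ± 0.74 for the second probe set. With the replicate number as a block the SE of the main probe set was 0.19. The second probe set measured 6.88, 5.49 and 4.47 in knockout, against 6.61, 4.78 and 5.49 in wild type, so array 1 was again highest in both genotypes but arrays 2 and 3 did not follow their number. Leaving out single arrays gave -0.84 to 0.67 for the main probe set, above 0 without wild-type array 1 (0.67) or knockout array 3 (0.34) and below 0 without any of the other 4.

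Array 1 lay above the mean of arrays 2 and 3 by 1.97 in knockout and 2.56 in wild type for *Tnc*, and by 1.90 and 1.48 for its second probe set. *Tnc* was 1 of 9 genes of the group with array 1 over 1 log2 unit above both other arrays in both genotypes, as were 2.79% of all genes. For *Smoc2* the same shift of array 1 was 4.56 in knockout and -0.96 in wild type, for *Postn* -2.83 and 1.83, and for *Sparcl1* -2.40 and 0.72, so these had opposite signs in the 2 genotypes. *Thbs2* shifted by 0.67 and 2.94 and *Thbs1* by 1.34 and -0.11. Each shift rests on 1 array per genotype, and their difference was not tested. Nearest in profile to *Tnc* were *Agrn*, the basement membrane proteoglycan agrin, and *Idnk*, a gluconate kinase, at 0.21 and 0.28 log2 units against a spread of 1.13.

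**Figure D3:**
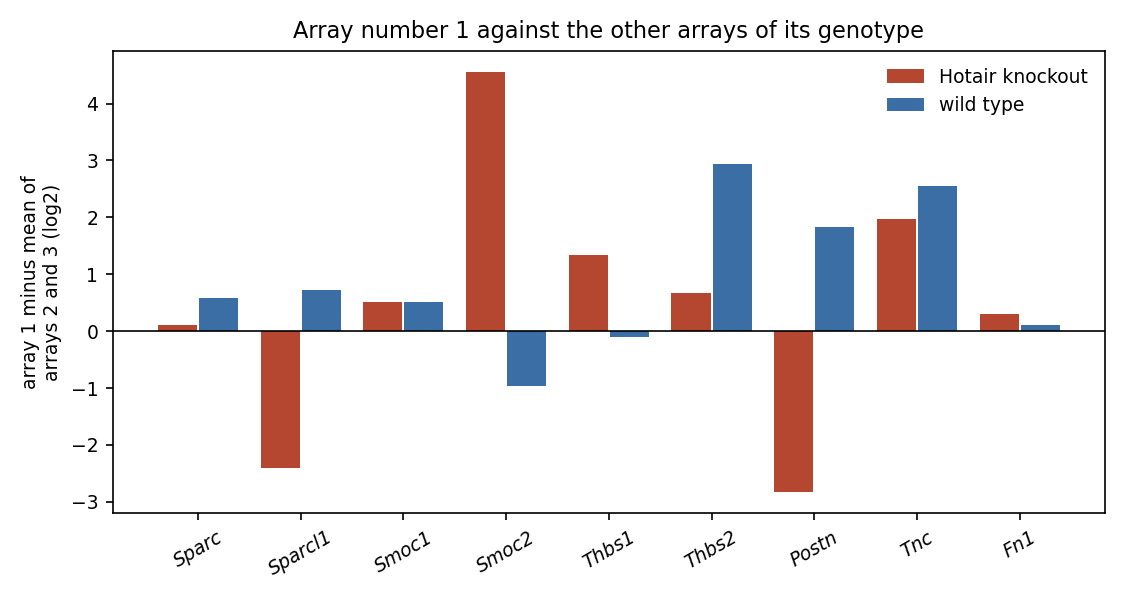
Value of array 1 minus the mean of arrays 2 and 3 of the same genotype, on the log2 scale, for 9 matricellular genes in *Hotair* knockout (red) and wild type (blue); each bar rests on 1 array against 2. The *Tnc* bars point up in both genotypes (1.97 and 2.56), while those of *Smoc2*, *Postn* and *Sparcl1* point in opposite directions.

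*Fn1* differed little. Fibronectin carries the attachment site for integrins, and the gene measured 14.03, 13.95 and 13.48 in knockout, against 14.06, 14.32 and 13.61 in wild type. The ranges overlapped, and the difference was -0.18 ± 0.25 (SE), with -0.37 to -0.01 when single arrays were left out. Its second probe set measured 7.77, 9.10 and 6.73 in knockout, against 7.90, 9.32 and 8.78 in wild type, with knockout array 3 the lowest, and differed by -0.80 ± 0.67. The closest profiles, *Myo19*, a mitochondrial myosin, and *Bgn*, the matrix proteoglycan biglycan, lay at 0.09 and 0.10 log2 units, but *Fn1* itself had a spread of only 0.29. *Sparc* (0.22) and *Smoc1* (0.24) likewise had little spread, and the genes nearest to them were *Tsen34* and *Ccdc22* for *Sparc* and *Ptgr1* and *Fam120b* for *Smoc1*, at 0.04 to 0.06.

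Among pairs of the group, *Thbs2* and *Tnc* had the closest profiles of those whose spread exceeded 1 log2 unit. Their distance was 0.87, not far below their own spreads of 1.21 and 1.13. *Sparcl1* and *Postn* followed (1.20), and *Smoc2* and *Postn* were the most distant (4.21). Genes of little spread lay closer, such as *Sparc* and *Smoc1* (0.15). The sequence upstream of the transcription start was given for 4 of the 9 measured genes, *Sparc*, *Thbs2*, *Postn* and *Tnc* (RefSeq, GRCm38.p6), with the first of 2 starts taken for *Postn* and *Tnc*. The 200 bases before the start are shown for *Thbs2* and *Tnc*, the closest pair among the genes with a spread over 1 log2 unit, and for *Postn*, which differed from both. Capitals mark matches to TATAAA or CCAAT on either strand.

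Thbs2, chr17:14694263-14694462, minus strand: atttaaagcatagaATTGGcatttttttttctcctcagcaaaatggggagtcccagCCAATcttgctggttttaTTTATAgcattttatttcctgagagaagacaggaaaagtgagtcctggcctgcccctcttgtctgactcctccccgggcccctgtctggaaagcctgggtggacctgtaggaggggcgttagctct
Tnc, chr4:64047016-64047215, minus strand: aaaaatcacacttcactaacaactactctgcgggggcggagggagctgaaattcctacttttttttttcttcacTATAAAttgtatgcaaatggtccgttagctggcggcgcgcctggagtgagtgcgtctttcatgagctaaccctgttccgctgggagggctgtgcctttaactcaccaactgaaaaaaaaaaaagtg
Postn, chr3:54359067-54359266, plus strand: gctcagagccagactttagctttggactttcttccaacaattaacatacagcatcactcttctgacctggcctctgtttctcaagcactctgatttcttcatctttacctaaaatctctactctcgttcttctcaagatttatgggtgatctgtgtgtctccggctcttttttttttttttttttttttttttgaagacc

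The letters TATAAA stood 126 to 121 bases before the start in both *Thbs2* and *Tnc*, on the opposite strand in *Thbs2* and on the strand shown in *Tnc*. They were found in 2 of the 4 windows searched, against 9.96% of all 32851 promoter windows of that length. CCAAT was found in 1 of 4, with 2 matches in *Thbs2* (144 to 140 bases before the start, and 186 to 182 bases on the opposite strand), against 29.3% of all windows. CATTCC, a core letter string of TEAD factor sites, and TGANTCA, that of AP-1 sites, were found in 0 of 4, against 10.1% and 5.48% of all windows. No motif overlapped another, and these matches are descriptions of the letters, not of factor binding.

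Other proteins of the same kind also lay on both sides. Of 22 further matricellular and related matrix genes, all measured, 0 had a limma adjusted p under 0.05, as had 0% of all genes. In knockout 14 were higher and 8 lower, the median difference being 0.10, beside 0.01 for all genes, and the genotypes did not overlap for 6 of 22, against 9.93% of all genes. *Ccn3*, a CCN family protein that restrains growth, measured 7.60, 8.02 and 9.22 in knockout, against 4.74, 5.79 and 6.17 in wild type, with every knockout array above every wild-type array (2.71 ± 0.55, SE). *Thbs3*, a thrombospondin of the pentameric subgroup, measured 8.21, 10.72 and 10.39 in knockout, against 8.04, 6.96 and 7.45 in wild type (2.29 ± 0.71). *Ccn2*, a CCN protein induced by TGF-beta and by Hippo pathway factors, measured 13.88, 10.56 and 10.45 in knockout, against 14.40, 14.35 and 14.50 in wild type (-2.79 ± 0.94). *Ccn2* thus resembled *Smoc2* in its low knockout arrays 2 and 3, although its knockout array 1 also lay below wild type.

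Receptors lay within 0.61 of 0. Of 20 receptor genes for these proteins, none missing from the array annotation, 7 were higher and 13 lower in knockout (median -0.17). By limma 0 passed, at an unadjusted p under 0.05 there were 0, against 6.68% of all genes, and the genotypes did not overlap for 0, against 9.93% of all genes. Those with the smallest p were *Cd44*, the hyaluronan and osteopontin receptor (-0.41 ± 0.24, SE), *Sdc1*, a heparan sulphate proteoglycan (-0.58 ± 0.42), and *Itga4*, an integrin chain that binds fibronectin (-0.37 ± 0.27), of which 2 of 5 probe sets went the other way, up to 0.11. *Itgb3*, the integrin chain that pairs with *Itgav* to bind several of these proteins, was at 0.49 ± 0.56, and the thrombospondin receptor *Cd47* at -0.06 ± 0.48. Without both arrays numbered 1 the list median was -0.32. The largest differences were then those of *Lrp1* (-1.11 ± 0.48), *Itgb3* (1.08 ± 0.43) and *Itgb8* (-1.03 ± 0.25).

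The collagens that SPARC and its relatives bind lay on both sides. The chains of basement membrane collagen IV lay lower in knockout: *Col4a1* measured 12.70, 11.50 and 10.92 in knockout, against 13.44, 13.37 and 13.21 in wild type (-1.64 ± 0.45, SE), and *Col4a2* was at -1.60 ± 0.57. The fibrillar chain *Col3a1* measured 13.88, 14.59 and 14.56 in knockout, against 13.82, 13.67 and 13.76 in wild type (0.59 ± 0.23). All 10 collagen partners were measured, 7 higher and 3 lower in knockout (median 0.19, mean -0.08), and 0 passed limma. For *Col4a1* and *Col3a1* the genotypes did not overlap, 2 of 10, against 9.93% of all genes.

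Proteases were more often above 0 than below. Of 14 listed proteases and inhibitors 13 were measured, 8 above 0 and 5 below, with a median of 0.28; 0 passed limma, and the genotypes did not overlap for 4 of 13, against 9.93% of all genes. *Mmp9*, a gelatinase, ranged from 8.17 to 9.20 in knockout, against 5.37 to 6.80 in wild type (2.42 ± 0.46, SE). *Mmp2*, the gelatinase made by fibroblasts, measured 12.38, 12.76 and 12.76 in knockout, against 12.02, 11.12 and 11.11 in wild type (1.22 ± 0.29). *Adamts4*, a proteoglycan-cutting enzyme that also cuts hevin, was at 1.75 ± 0.62, with *Sparcl1* at 1.99 ± 0.81.

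In the TGF-beta pathway the ligands lay on both sides. *Tgfb3* measured 11.64, 9.68 and 9.89 in knockout, against 12.30, 11.97 and 11.33 in wild type (-1.46 ± 0.58, SE), while *Tgfb2* was at 0.81 ± 0.64 and *Tgfb1* at -0.13 ± 0.53. *Tgfbr3*, the accessory receptor betaglycan, measured 11.39, 12.07 and 11.74 in knockout, against 9.66, 9.04 and 10.58 in wild type (1.97 ± 0.42), but only 0.46 by its second probe set. Of 17 listed genes 16 were measured, 6 above 0 and 10 below, with a median of -0.08, and 0 passed limma. The smallest limma adjusted p among the 81 measured genes of the 5 lists was 0.743.

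**Figure D4:**
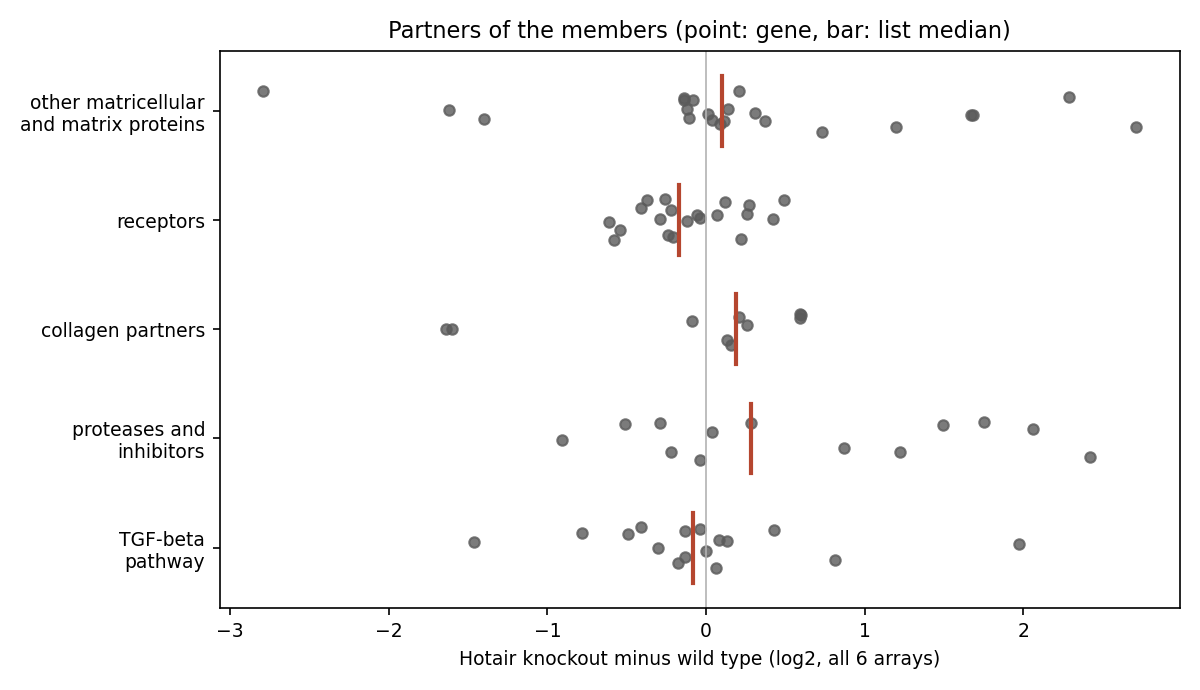
Difference of each measured gene in 5 lists of partners of the matricellular proteins, *Hotair* knockout minus wild type on the log2 scale over all 6 arrays; points are genes and red bars are list medians (0.10, -0.17, 0.19, 0.28 and -0.08 from top to bottom). The 20 receptors lie between -0.61 and 0.49, while the matricellular relatives reach from -2.79 to 2.71.

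Without both arrays numbered 1, a choice made because they stood apart, 2 arrays were compared with 2. By limma 4 of 9 genes of the group then had an adjusted p under 0.05, *Sparcl1* and *Thbs2* higher and *Smoc2* and *Thbs1* lower in knockout, against 14% of all genes. That is 2 higher, against 7.56% of all genes, and 2 lower, against 6.41%, and nothing is read from this count because the same contrast helped to choose them. *Postn*, at 4.51, was not among them. At probe set level 4 of 17 passed, against 4.08% of all probe sets, namely both of *Smoc2* and 1 each of *Thbs1* and *Thbs2*. The partner lists had 21 of 81 genes past the same threshold. Of the matricellular relatives 4 were higher (*Ccn3*, *Thbs3*, *Tgfbi* and *Fbln1*, whose 3 probe sets differed by 0.03 to 1.67 over all 6 arrays) and 4 lower (*Ccn1*, *Ccn2*, *Ccn5* and *Mgp*). Of the proteases 6 were higher and 0 lower, of the collagen partners 1 higher and 2 lower, of the TGF-beta list 1 higher and 3 lower, and of the receptors 0 either way. In this smaller comparison *Ccn2* was at -3.92 (limma adjusted p = 0.00178), *Thbs3* at 3.35 (0.00530), *Ctsk*, a collagen-degrading cathepsin, at 3.56 (0.00824), and *Mmp2* at 1.64 (0.00650). Over all 6 arrays *Ctsk* was at 2.06 ± 0.92 (SE) and its genotypes overlapped, with knockout lower for array number 1 (-0.93). *Mgp*, lower at -1.19 in the smaller comparison, was higher in knockout over all 6 arrays, at 0.37. By array number *Mgp* differed by 3.49, -1.25 and -1.14. *Ccn5* was at -1.4 ± 1.28 (SE) over all 6 arrays, and at 1.52, -2.62 and -3.11 by array number. The genotypes overlapped for both *Mgp* and *Ccn5*. *Ccn1* (-1.62) and *Ccn2* (-2.79) were lower over all 6 arrays too.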

How the data were processed

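For each of 6 arrays the authors deposited log2 expression per probe set, and the submitters' processing notes name RMA and R 2.11.1. RMA removes background, makes the arrays' distributions equal and combines the probes of a set. Per the labels' protocols, total RNA came from a column kit and was labelled by 3′ IVT chemistry. Probe sets were named from the platform annotation: of 45037 that are not controls, 34945 had 1 gene. Knockout was set against wild type by lmFit and eBayes (limma 3.58.1, R 4.3.3), genotype as the only term, Benjamini-Hochberg at 0.05, over 18193 genes (probe set of highest mean) and over all 45037 probe sets. The code was tested on simulated data. The labels do not say whether samples were separate animals or cultures, and p-values cover only sample-to-sample spread, which may be technical. Precision is limited by how few arrays there are, as an exact permutation test of 3 against 3 cannot go below 0.1.

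The genes and lists were chosen with earlier results of these data known. Named were all genes of the group, the 3 genes of smallest p per partner list and the 2 nearest profiles per gene among 8920 candidates; *Itgb3*, *Cd47*, *Tgfb1*, *Ctsk*, *Grb10*'s values, the neighbours, the marker genes and the genes passing without arrays numbered 1 were named after their values were seen. Same-numbered arrays had deviations from the genotype means that correlated at 0.497, 0.491 and 0.247 for numbers 1, 2 and 3. Arrays of different number correlated at -0.522 to 0.326. The highest of these, knockout array 2 with wild-type array 3, lay above the 0.247 of number 3. The numbers were taken to pair the arrays in the replicate block and the differences by array number, although the sample labels name no pairs. All SEs but the block SE given for *Tnc* are from fits without this pairing. With the block the SE was 1.27 for *Smoc2*, 0.35 for *Thbs1*, 0.52 for *Thbs2*, 1.32 for *Postn* and 0.71 for *Sparcl1*. Arrays numbered 1 standing apart contribute to these correlations. Alternatives were the replicate block, leaving out arrays, array weights, other priors, filters, normalizations, probe set choices, tests and thresholds.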

Additional observations from a re-analysis of the deposited data

How the results depend on the processing

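Over all 6 arrays limma called 0 genes, 0 probe sets, 0 of the 9 matricellular genes and 0 of the 81 partner genes, and 1216 genes had an unadjusted p under 0.05. With the replicate block the pairing gave 0 of each again, with 2017 genes at an unadjusted p under 0.05. Leaving out single arrays gave 0 to 87 genes, 0 to 48 probe sets, 0 to 1 matricellular gene (*Smoc2*) and 0 to 4 partner genes (*Ccn1*, *Ccn2*, *Ccn5* and *Col4a1*), the highest each time without knockout array 1. Without both arrays numbered 1 the counts were 2542, 1836, 4 and 21. Array weights, which gave arrays numbered 1 weights of 0.329 (knockout) and 0.244 (wild type) and the other arrays 1.04 to 3.18, called 2101 genes, 0 probe sets, 5 matricellular genes (*Postn*, *Smoc2*, *Sparcl1*, *Thbs1* and *Thbs2*) and 18 partner genes. The other priors, filter, normalizations, probe set rule, ordinary test and threshold of 0.1 gave 0 throughout. Differences of *Smoc2*, *Thbs1*, *Thbs2*, *Postn*, *Sparcl1* and *Fn1* kept their sign in all 12 alternatives each; those of *Sparc*, *Smoc1* and *Tnc* did not. *Postn* ranged from 1.67 to 5.1 and *Sparcl1* from 1.22 to 3.23, both highest with array weights. The receptor median went from -0.17 to -0.32 without both arrays numbered 1, and the protease median from 0.28 to 0.6 without knockout array 1. The cause of these changes was not tested.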
